A study of Homo sapiens with 3 samples.

Results

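Methionine carries the methyl groups of the cell, and 10 genes of its metabolism are described here in MCF10A cells. They are MTAP, MRI1, APIP, ENOPH1 and ADI1 of the methionine salvage route, MAT2A, MAT2B, AHCY and MTR of the methionine cycle, and PRMT5, an arginine methyltransferase. The genes were chosen by symbol from a table of 62754 genes, 20046 of them protein-coding, and they were chosen with the reading of 0 for MTAP in these libraries known. That reading is therefore given as a description, with no test. MCF10A is an immortalised line from human breast epithelium that does not form tumours. RNA-seq was measured in 3 replicates of MCF10A cells during exponential growth, all of 1 condition. The cells of each replicate carried an empty vector (EV) of a retroviral, doxycycline-inducible system with no gene inserted, had been selected with puromycin, and received neither doxycycline nor another treatment. Cells without the vector were not analysed here, so what the vector or the selection adds cannot be told apart from the line itself. No label says that the replicates came from separate cultures, so the spread between them may be technical.

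Levels were given by the authors as TPM, a relative unit that corrects read numbers for transcript length and brings every replicate to the same total. Multiplied by length, the values were whole multiples of a smallest step for 100% of the annotated genes above 0 TPM in each replicate. If the step is 1 read, replicates 1, 2 and 3 contain 15273329, 15446347 and 11166546 reads, of which 0.159%, 0.161% and 0.154% lay on the 10 genes. Replicate 3 was the shallowest. The labelled cell type was checked by its markers, and the 6 markers of breast epithelium, basal and general (KRT5, KRT14, KRT17, TP63, CDH1 and EPCAM) were each above 1 TPM, with a sum of 11460 to 14794 TPM. The 7 markers of blood, endothelial, fibroblast and fat cells summed to 6.47 to 7.52 TPM, with COL1A1 at 4.96 and PECAM1 at 1.77 TPM, the other 5 below 1 TPM, and no reads on CD3E and ADIPOQ.

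The methionine cycle makes S-adenosylmethionine, the methyl donor of most methyltransferases, and regenerates methionine from what is left after the methyl group is spent. Polyamine synthesis uses S-adenosylmethionine in another way and releases methylthioadenosine, which MTAP cleaves so that adenine and the methylthio group can be reused. MTAP lies beside CDKN2A on the short arm of chromosome 9, a region that is often lost in tumours and cell lines, and methylthioadenosine that builds up in cells without MTAP is known as an inhibitor of PRMT5. Neither metabolites of this route nor DNA copy number were measured in these libraries.

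MAT2A holds a regulatory sequence that ties its own RNA to the supply of S-adenosylmethionine. Hairpins in its 3′ UTR are bound by METTL16, an RNA adenosine methyltransferase, and this is known to control splicing and stability of the MAT2A transcript. The 3′ UTR of the canonical MAT2A transcript, 1509 bases long, was searched on its sense strand for TACAGAGAA and TACAGAAAA, the core that METTL16 recognises, and held 5 copies of the former and 1 of the latter. Each copy is shown because MAT2A is the highest of the 10 genes and its regulator was measured in the same libraries. The sequences read 5′ to 3′ from GRCh38, chromosome 2, plus strand, with the core in capitals and 10 bases on each side.
MAT2A copy 1, chr2:85543802-85543830: tggcgtaggcTACAGAGAAgccttcaagc
MAT2A copy 2, chr2:85544589-85544617: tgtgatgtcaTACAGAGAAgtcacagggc
MAT2A copy 3, chr2:85544774-85544802: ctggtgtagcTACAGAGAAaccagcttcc
MAT2A copy 4, chr2:85544889-85544917: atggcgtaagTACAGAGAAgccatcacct
MAT2A copy 5, chr2:85545004-85545032: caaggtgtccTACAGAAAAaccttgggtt
MAT2A copy 6, chr2:85545112-85545140: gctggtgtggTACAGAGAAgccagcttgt

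The bases before and after the core could pair in each of the 6 copies, over 4 bases in copy 1, 6 bases in copy 5 and 5 bases in the others. In copy 5 the bases caaggt before the core face accttg after it. Of 19550 3′ UTRs of protein-coding genes, 868 (4.44%) held at least 1 copy of either core, and of 2547 with a length from that of MAT2A to 1.5 times that length, 131 (5.14%) did. MAT2A was the only gene with 6 copies, and the next highest number, 2 copies, was found in 49 UTRs. The other 9 genes had 0 copies. A match is a description of the letters and does not show that METTL16 was bound in these cells.

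MTAP, the phosphorylase that opens the salvage route, had 0 reads in each of the 3 replicates. At the length used for MTAP, 1 TPM corresponds to 39.8, 40.9 and 33.9 reads in replicates 1, 2 and 3. A count of 0 allows up to 3 reads, so the level could reach 0.0754, 0.0734 and 0.0886 TPM, and this limit covers counting error only. The gene lies on chr9:21802636-21937651 of GRCh38, plus strand, with a canonical transcript of 6032 bases in 8 exons. Of the 14527 exonic bases over all transcripts of MTAP, 1144 are shared on the same strand with the endogenous retrovirus gene ERVFRD-3 or the lncRNA ENSG00000264545, which also had 0 reads. The other 13383 bases are shared with no gene on that strand, and they drew no read. On the opposite strand the lncRNA ENSG00000265194 overlaps 123 bases of the canonical transcript, and it had 0 reads as well. With MTAP set at its limit, its level was at least 146-fold lower than that of APIP, the lowest of the other 9 genes in deposited TPM, and at least 4645-fold lower than that of MAT2A, in every replicate.

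MTAP has near copies elsewhere in the genome, and their reads were looked at as well. MTAPP2, a processed copy on chromosome 3, aligned with the MTAP transcript at 92.6% identity over 837 bases, with 96 bases as the longest identical run. It had 0, 4 and 3 reads. MTAPP1 aligned at 69.8% over 845 bases and had 0 reads. MTAPP2 was the only one of 14 pseudogenes of the 10 genes with reads, and how the authors' pipeline treats reads that map to more than 1 place is not given in the sources used here.

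The stretch after MTAP held almost no reads. Between the start of MTAP and DMRTA1 the annotation places 15 genes, of which MTAP, CDKN2A and CDKN2B are protein-coding. These 15 genes held 1 read in all, on CDKN2B-AS1 in replicate 3. CDKN2A and CDKN2B, inhibitors of the cyclin D kinases, had 0 reads in each replicate, and the exons of the 3 coding genes together span 22412 bases. Protein-coding genes with reads stood on either side of this stretch. The nearest on each side, IFNE and DMRTA1, had means of 0.985 and 0.625 TPM, both under 1 TPM. The next on each side, KLHL9 and ELAVL2, had 12.8 and 6.28 TPM. Before MTAP, the nearest protein-coding gene with reads was IFNE, an epithelial interferon gene 320 kb away, with 5, 10 and 7 reads. KLHL9, a substrate adaptor of a ubiquitin ligase, followed with 445, 355 and 318 reads, and FOCAD, the gene of the protein focadhesin, with 639, 740 and 504. After MTAP, DMRTA1 lay 509 kb from its end with 21, 17 and 15 reads, and ELAVL2, an RNA-binding protein gene, had 147, 135 and 99.

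**Figure D1:**
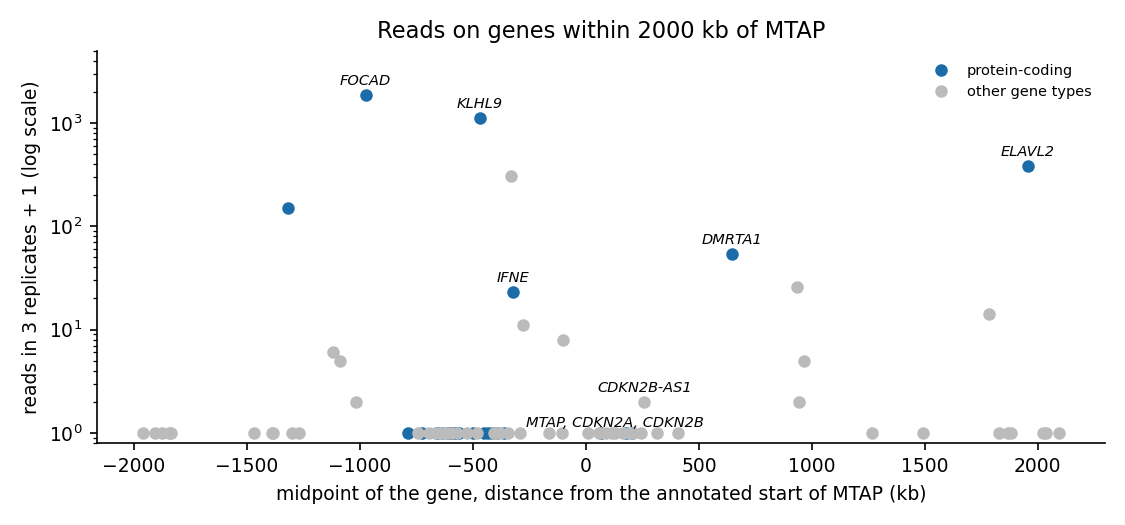
Reads of the 83 annotated genes within 2000 kb on either side of MTAP, summed over the 3 replicates with 1 added (vertical axis, log scale), against the distance of the gene's midpoint from the start of MTAP in kb (horizontal axis). Protein-coding genes are blue and other genes grey. MTAP, CDKN2A and CDKN2B sit at 0 reads, CDKN2B-AS1 holds 1 read, and FOCAD, KLHL9, DMRTA1 and ELAVL2 rise on either side.

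Genes without reads were not rare in the wider region. Of 25 protein-coding genes within 2000 kb on either side of MTAP, 6 had reads, and 16 of the 25 are interferon genes, of which only IFNE had any. Of all 83 annotated genes in the window, 17 had reads. The nearest of any kind before MTAP was RN7SL151P, a copy of the signal recognition particle RNA. It lay 103 kb away, had 1, 1 and 5 reads, and is named here after its values were seen. How reads that fit other copies of this RNA were counted is not given. The next was the lncRNA MIR31HG, 243 kb away with 98, 107 and 99 reads, also named after its values were seen. From the end of RN7SL151P to the start of DMRTA1 is 747 kb. A lost locus and a silent locus cannot be told apart from reads of RNA.

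The 4 salvage enzymes that act after MTAP were all expressed, at levels from 14.3 to 117 TPM. MRI1, an isomerase, takes the methylthioribose phosphate that MTAP releases and had 28.9, 33.8 and 25.4 TPM from 483, 581 and 361 reads. APIP, the dehydratase of the next step, had 15.8, 14.2 and 13.0 TPM from 380, 353 and 266 reads. Replicate 2 was the highest for MRI1 and replicate 3 the lowest for both, and the ranges of the 2 genes did not overlap in deposited TPM. With canonical transcript lengths the order turned, and APIP was above MRI1 in 3 of 3 replicates. In bulk RNA, fewer cells with a transcript and less of it per cell cannot be told apart.

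ENOPH1, which acts as enolase and phosphatase on the dehydrated product, had 98.0, 88.5 and 76.9 TPM, a mean of 87.8 ± 10.6 (SD, n = 3). ADI1 is the dioxygenase that makes the keto acid of methionine, and its level was 122, 121 and 109 TPM (mean 117 ± 7.16). Replicate 3 was the lowest for both enzymes. ADI1 stood above ENOPH1 in 3 of 3 replicates, and its spread was the smallest among the 9 expressed members, with an SD of 0.09 on the scale of log2(TPM + 1).

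The last step, transfer of an amino group to the keto acid, has several candidate enzymes. KYAT3, a kynurenine and glutamine transaminase, had 73.5 ± 5.34 TPM (SD, n = 3). NIT2, an amidase that clears the product left by glutamine transamination, had 22.0 ± 2.20 TPM. KYAT1 was listed at 0.626 TPM, but a neighbour on the same strand covers 84.6% of its canonical transcript, so its level is uncertain. TAT, the tyrosine transaminase of liver, had 0 reads.

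In the methionine cycle, MAT2A was the highest of the 10 genes. It encodes the catalytic subunit of the methionine adenosyltransferase found outside the liver, and its level was 513, 489 and 412 TPM from 7588, 7435 and 5183 reads. That placed it at rank 241 of 20046 protein-coding genes. MAT2B, the regulatory subunit, had 67.1, 55.3 and 56.6 TPM from 1561, 1323 and 1120 reads. MAT2A was lowest in replicate 3 and MAT2B in replicate 2.

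MAT2A was 7.89-fold above MAT2B, a geometric mean over replicates, and higher in 3 of 3. The size of this ratio depends on the length assigned to MAT2B, and with canonical transcript lengths it was 3.68-fold. MAT1A, the liver form of the catalytic subunit, had 1.12, 0.383 and 0.463 TPM from 20, 7 and 7 reads. Its transcript aligned with MAT2A at 73.9% identity over 1129 bases, but no identical run was longer than 15 bases. METTL16, which binds the MAT2A hairpins, had 36.5 ± 3.47 TPM (SD, n = 3). The log2 ratio of MAT2A to METTL16 was 3.69 ± 0.03 over the replicates, a 12.9-fold difference. Whether the level of METTL16 and that of MAT2A are linked was not tested.

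AHCY, the hydrolase that removes S-adenosylhomocysteine, the product and inhibitor of methyltransferases, came next with 304, 302 and 261 TPM from 3769, 3852 and 2759 reads. Replicates 1 and 2 were close and replicate 3 was lower. The related AHCYL1 and AHCYL2, which regulate ion channels and transporters, had 101 ± 10.3 and 9.56 ± 1.03 TPM. AHCY was 2.86-fold above AHCYL1 and 30.3-fold above AHCYL2, and higher in 3 of 3 replicates. The longest run of bases that AHCY shared with either was 14.

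MTR, methionine synthase, moves a methyl group from folate to homocysteine and needs cobalamin. It had 74.8, 84.2 and 62.1 TPM from 4146, 4796 and 2929 reads, with replicate 2 the highest and replicate 3 the lowest. MTRR, which reactivates MTR, had 73.1 ± 7.41 TPM. The log2 ratio of MTR to MTRR was 0.01 ± 0.09 and MTR was the higher in 1 of 3 replicates, so the levels of the pair were not separated beyond the spread between replicates.

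The genes that supply MTR with cobalamin were all at or above 1 TPM (5 of 5), against 56.7% of all protein-coding genes. MMADHC, which directs the cofactor to its target enzymes, stood at 225 ± 5.87 TPM, and CD320, the receptor for cobalamin uptake, at 72.1 TPM. ABCD4 and LMBRD1, which release it from lysosomes, had 18.6 and 14.6 TPM, and MMACHC, which processes it, had 14.5 TPM.

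Other enzymes of the cycle and of transsulfuration were read beside MTR. BHMT and BHMT2, which remethylate homocysteine with betaine or S-methylmethionine in the liver and kidney, had 0 reads. CBS, the entry to transsulfuration, had 0.400 TPM from 5, 6 and 5 reads. The assembly holds a near-identical copy of CBS, and how reads that fit both were counted is not given, so this level is uncertain. CTH, which follows it, had 3.60 ± 0.896 TPM. GNMT, a glycine methyltransferase of the liver that consumes excess S-adenosylmethionine, had 2, 1 and 1 reads. As listed, each of these 5 genes was below MTR, at 62.1 TPM or more, in every replicate.

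**Figure D2:**
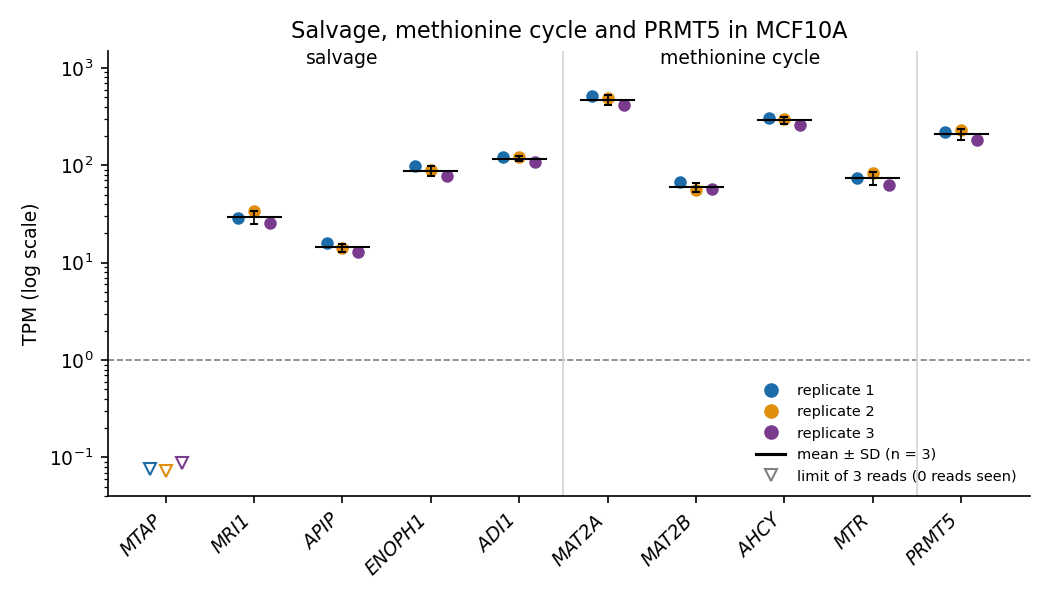
Level of each of the 10 genes in each replicate, in TPM on a log scale, with the mean as a bar and the SD as a line (n = 3). Genes are grouped by role and the dashed line marks 1 TPM. The 9 expressed genes lie between APIP at 14.3 TPM and MAT2A at 471 TPM, and the open triangles show the limit that 0 reads allow for MTAP, at most 0.0886 TPM.

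PRMT5 places symmetric methyl groups on arginine in histones and in proteins of the spliceosome. It had 219.5, 230.3 and 180.2 TPM from 2778, 2995 and 1940 reads, which is rank 654 of 20046 protein-coding genes. Replicate 2 was the highest and replicate 3 the lowest. The lncRNA PRMT5-AS1 overlaps 893 bases (38.8%) of the canonical PRMT5 transcript on the opposite strand, and had 1, 1 and 0 reads.

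The genes whose products work with PRMT5 were lower than PRMT5 in 3 of 3 replicates. WDR77 forms the core complex with it and had 62.1 ± 2.15 TPM, so that PRMT5 was 3.36-fold higher. Of the canonical WDR77 transcript, 27.4% is shared with a lncRNA, and over unshared bases the ratio was 2.56-fold. The 3 substrate adaptors were COPRS at 124 ± 14.9, CLNS1A at 106 ± 10.8 and RIOK1 at 64.4 ± 5.54 TPM. COPRS serves histones, CLNS1A the Sm proteins of the spliceosome, and RIOK1 other substrates such as nucleolin.

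Among the other arginine methyltransferases, 7 of 8 were at or above 1 TPM, against 56.7% of all protein-coding genes. PRMT1, the main enzyme of asymmetric dimethylation, was at 355 ± 39.2 TPM. PRMT5 was lower than PRMT1 in 3 of 3 replicates, at 0.592 times its level, or 0.488 times with canonical transcript lengths. CARM1 had 109 ± 19.8 TPM and PRMT5 was 1.94-fold above it. PRMT3, PRMT6, PRMT2, PRMT7 and PRMT9 ranged from 60.1 down to 8.47 TPM, and PRMT8, a form of the brain, had 0 reads. PRMT9, at 8.47 TPM, is the other enzyme of symmetric dimethylation.

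**Figure D3:**
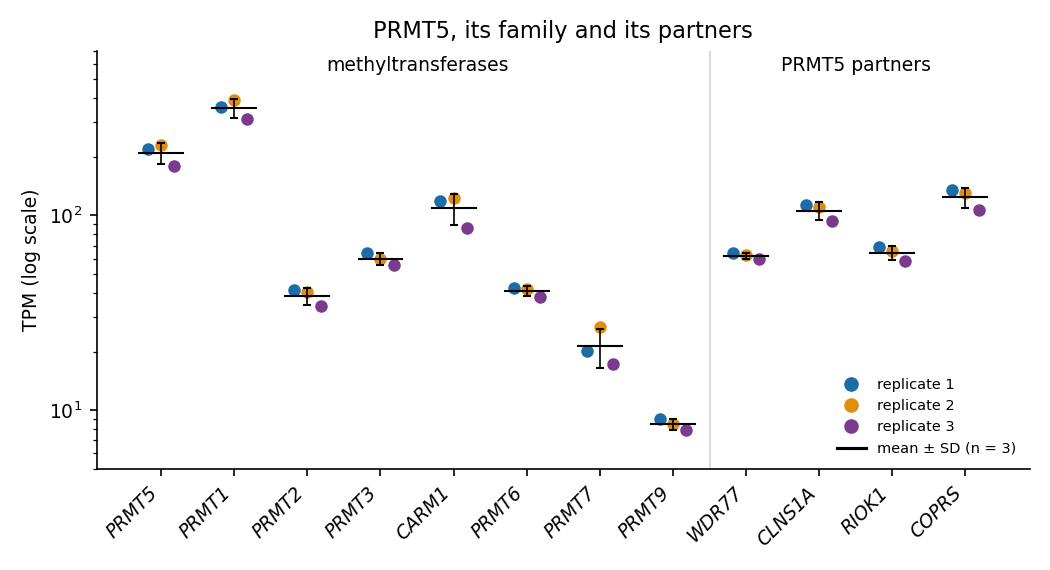
Level of PRMT5, the other arginine methyltransferases with reads and 4 partners, in TPM on a log scale, with each replicate as a point, the mean as a bar and the SD as a line (n = 3). PRMT1 at 355 TPM is the only one above PRMT5 at 210.0 TPM, and the partners lie between 62.1 and 124 TPM.

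The 4 enzymes that lead to methylthioadenosine ranged from 86.2 to 509.6 TPM. ODC1, the entry enzyme of polyamine synthesis, had 509.6 ± 31.4 TPM, and SRM and SMS, the synthases that release methylthioadenosine, 414 ± 75.6 and 243 ± 26.3 TPM. AMD1, which decarboxylates S-adenosylmethionine for them, had 86.2 ± 10.1 TPM. The log2 ratio of MAT2A to ODC1 was -0.12 ± 0.10 and that of MAT2A to SRM 0.20 ± 0.14. All 4 genes of this list were above 1 TPM in libraries in which MTAP had 0 reads. Of all protein-coding genes, 56.7% were at or above 1 TPM.

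Methyltransferases of small molecules, which draw on the same donor, were at or above 1 TPM in 5 of 9 cases, a share near the 56.7% of all protein-coding genes. NNMT, which methylates nicotinamide, was the highest at 264 ± 10.7 TPM, and the log2 ratio of PRMT5 to NNMT was -0.34 ± 0.13. PEMT, for phospholipid, had 47.2 TPM. TPMT and GAMT, for thiopurines and creatine synthesis, had 15.7 and 5.67 TPM. HNMT, for histamine, had 1 read in each replicate, and INMT, PNMT and ASMT had none. Of the INMT transcript, 14.7% is shared with another gene. ASMT lies in a region that is identical on the X and Y chromosomes, so its 0 is not read as a lack of expression.

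Methionine enters cells through several amino acid transporters, among them those of large neutral amino acids. All 6 genes of this list were at or above 1 TPM, against 56.7% of all protein-coding genes. SLC7A5 had 572 ± 82.2 TPM, its heavy chain SLC3A2 261 ± 24.8 and SLC38A2 345 ± 38.9. The remaining SLC7A8, SLC43A1 and SLC43A2 had 6.23, 2.11 and 1.62 TPM.

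Counted together, 9 of the 10 members had a mean at or above a cutoff of 1 TPM. MTAP was the exception, as the choice of the members fixed. The background was 24.9% of all 62754 genes and 56.7% of the 20046 protein-coding genes. In the 9 other lists of the pathway, 39 of 51 genes passed the same cutoff and 7 had no reads. The lists of the last salvage step, of other cycle genes and of transsulfuration passed in 2 of 4, 5 of 9 and 1 of 2 cases. The median level was 80.8 TPM over the 10 members and 22.0 TPM over the 51 other pathway genes, against 3.75 TPM over all protein-coding genes. Over the protein-coding genes at or above 1 TPM it was 24.9 TPM.

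The order of the 9 expressed members by mean was MAT2A, AHCY, PRMT5, ADI1, ENOPH1, MTR, MAT2B, MRI1 and APIP. Each of the 8 neighbouring pairs stood in that order in 3 of 3 replicates. No test was made of them, since an exact two-sided test of 3 pairs cannot give a p under 0.25. The TPM ranges of 2 pairs overlapped. These were ENOPH1 and MTR, with log2 ratios of 0.39, 0.07 and 0.31, and MTR and MAT2B, with 0.16, 0.61 and 0.13. From top to bottom the levels spanned 32.9-fold.

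This order rests in part on the length by which reads are divided. The deposited TPM match the longest annotated transcript of a gene, less 1 base for each exon. For APIP that is a transcript marked for nonsense-mediated decay of 4583 bases, against 1246 for the canonical transcript, and for MAT2B a retained-intron transcript of 4416 bases against 2064. For ADI1 it is a coding transcript of 3870 bases against 2181. AHCY and PRMT5 differed by 1.10 and 1.05 times, and MRI1, ENOPH1, MAT2A and MTR not at all. Dividing the reads by canonical lengths and scaling to the same total gave APIP 43.1 ± 3.77, MAT2B 104 ± 10.8 and ADI1 169.6 ± 8.23 TPM. APIP then stood above MRI1, at 23.9 ± 3.21 TPM, in 3 of 3 replicates, with a log2 ratio of MRI1 to APIP of -0.85 ± 0.19. Of the 8 pairs, 5 kept their order in 3 of 3 replicates and the span fell to 16.0-fold. MAT2A, AHCY, PRMT5 and ADI1 were the highest under either length, in that order by mean. With canonical lengths PRMT5 and ADI1 did not keep this order in replicate 3, at 157 and 160 TPM. MAT2B, at 104 TPM by mean, then stood above ENOPH1 at 71.5 and MTR at 60.0 TPM.

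**Figure D4:**
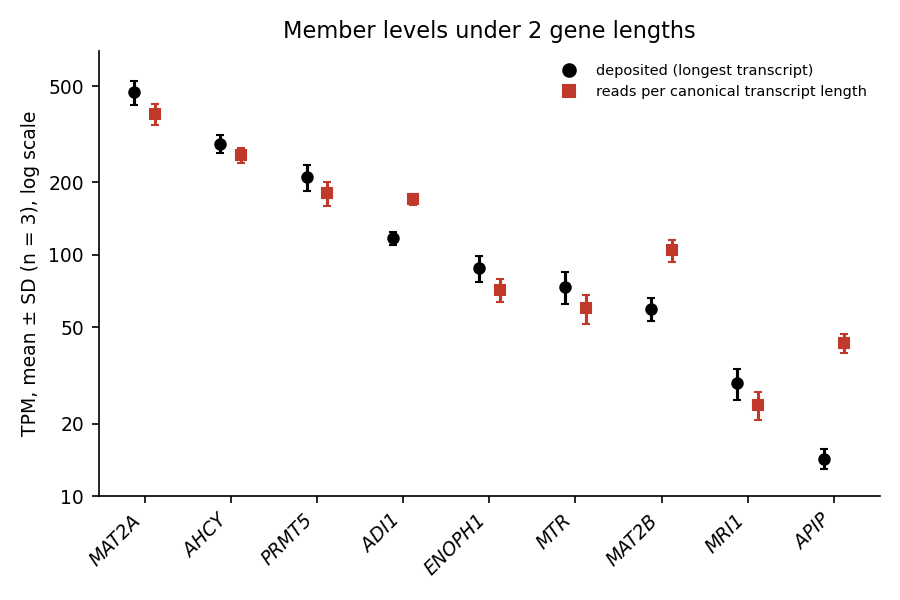
Mean TPM with SD (n = 3) of the 9 expressed members on a log scale, as deposited (black circles, longest transcript) and with reads divided by the canonical transcript length (red squares). APIP rises from 14.3 to 43.1 TPM, MAT2B from 59.7 to 104 and ADI1 from 117 to 169.6. The others fall with the common scaling, such as MAT2A from 471 to 384 TPM and MTR from 73.7 to 60.0.

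Genes on the opposite strand overlap several members, and the strand setting of the authors' counting is not given in the sources used here. The overlap covers 33.9% of the canonical transcript of MRI1, 20.0% of MAT2A, 12.2% of APIP and 10.4% of ADI1, next to the 38.8% of PRMT5. For MAT2A the partner is GGCX, a vitamin K-dependent carboxylase gene, at 20.0 TPM, and the shared 562 bases lie where both genes end and hold copies 3 to 6 of the METTL16 core. For APIP it is PDHX, a subunit of pyruvate dehydrogenase, at 48.3 TPM. The lncRNAs that face MRI1 and ADI1 each had a mean under 1 TPM, and the highest single value was 1.14 TPM.

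Replicate 3 was lower than the others for most members and for most genes at or above 10 TPM. The log2 ratio of replicate 3 to replicate 1 was below 0 for 9 of 9 expressed members, from -0.35 to -0.16 with a median of -0.27, and the median over genes at or above 10 TPM was -0.25. For replicate 3 to replicate 2, 8 of 9 were below 0, with MAT2B at 0.03, and the medians were -0.21 for the members and -0.24 for the genes. For replicate 2 to replicate 1 both medians were -0.01, and the members ran from -0.28 for MAT2B to 0.23 for MRI1. The median SD of log2(TPM + 1) was 0.17 over the members, 0.19 over all genes at or above 1 TPM and 0.16 over 7234 protein-coding genes with means between those of the lowest and highest member. Without replicate 3 the value of the members was 0.10.

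**Figure D5:**
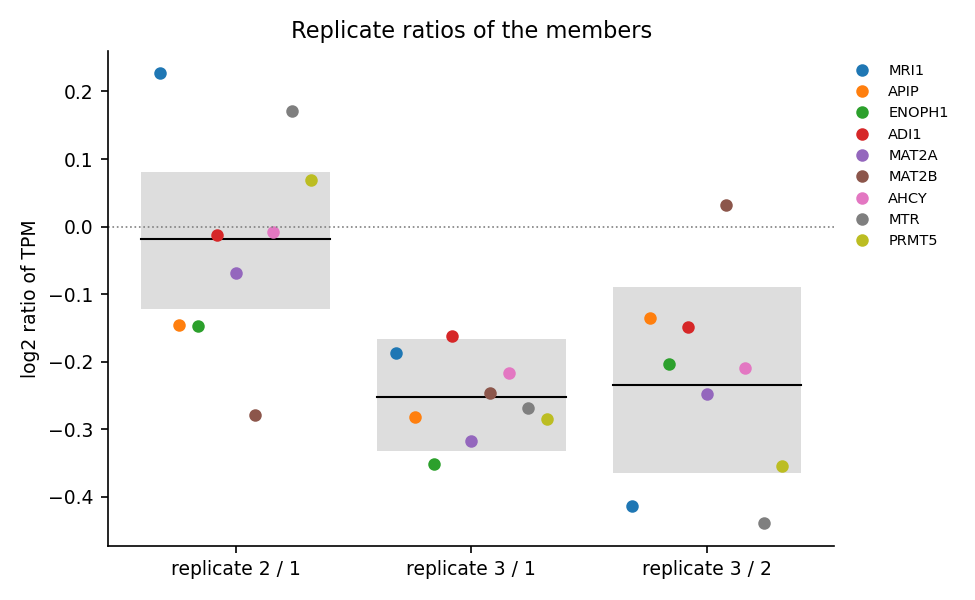
Log2 ratio of TPM between replicates for the 9 expressed members (points), with the interquartile range (grey band) and median (line) of 7234 protein-coding genes with a mean between those of the lowest and highest member. In the ratios of replicate 3 to 1 and 3 to 2 the band lies below 0, with medians of -0.25 and -0.23, and 7 and 6 of the 9 members fall inside it. For replicate 2 to 1 the median is -0.02 and 4 of 9 members fall inside the band.

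Reads of 8 of 9 expressed members differed between replicates by more than counting error, in a chi-square test against equal TPM adjusted by Benjamini-Hochberg over 15802 genes. This was true of 54.3% of all genes tested. An exact multinomial test of the members, added after the data were seen and adjusted over the same genes, called the same number. APIP, with the fewest reads, was not called (exact multinomial test, adjusted p = 0.0824). With each replicate centred on its median ratio, 4 of 9 members were called by either test, against 31.2% of all genes by the chi-square test. After centring, MTR had an adjusted p of 2.55e-10 and MAT2B of 3.52e-06 by the exact test. PRMT5 and MAT2A passed narrowly, with adjusted p = 0.0360 and 0.0464 by the exact test, and MRI1 missed the threshold of 0.05 with adjusted p = 0.0580 by the exact test. ADI1, ENOPH1, APIP and AHCY did not pass either, with adjusted p = 0.181, 0.194, 0.575 and 0.754 by the exact test. The counts rest on the replicates used. Without replicate 3, 4 members differed from equal TPM, against 21.3% of all genes tested. After centring, 3 members were called without replicate 1, against 27.3% of genes, and 3 without replicate 3, against 21.2%. Without replicate 2 the chi-square test called 0 members after centring, against 8.89% of genes, and 2 had an unadjusted p under 0.05. The differences were small in size, since MTR, with the largest spread, had an SD of 0.22 on the log2 scale.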

How the data were processed

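RNA-seq libraries depleted of ribosomal RNA were made from 3 replicates of MCF10A cells. The authors used Seq2science to map reads to hg38 and to count them, and the submitters' processing notes also name fastp, STAR and MultiQC. The annotation release, the handling of multi-mapped reads and the use of strand are not given in the sources used here. The authors deposited TPM values for 62754 genes. GENCODE release 44 holds 62700 of them and lacks 54.

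Reads were recovered as TPM times length (longest transcript, less 1 base per exon) over the smallest step, with values within 0.01 of a whole number called whole. The totals assume that the step is 1 read. Depth limits a gene with 0 reads to 3 reads. TPM are relative, so a level falls where other genes rise. Spread is given as SD on the scale of log2(TPM + 1). Replicates were compared for genes with at least 15 reads by chi-square (Benjamini-Hochberg, threshold 0.05), and for the members also by an exact multinomial test added after the data were seen, whose p replaced theirs before adjustment. Sequence identity came from blastn, and exon sharing, UTRs and canonical transcripts from GENCODE.

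With 1 condition, no groups were compared. The members and lists were chosen with earlier results of these data known. Every gene of the lists was eligible to be named, with the nearest genes of MTAP and overlapping genes. Some genes of the lists are not reported here by name. Alternatives covered the cutoff, scaling, gene length, pseudocount, read minimum and each replicate left out. The scripts were tested on simulated data. Software was blastn 2.17.0, scipy 1.17.1, pandas 2.3.3, numpy 2.4.6, matplotlib 3.10.9 and Python 3.11.15.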

Additional observations from a re-analysis of the deposited data

How the results depend on the processing

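The number of members at or above 1 TPM was 9 under cutoffs of 0.5 and 2 TPM, in every replicate alone, with protein-coding genes scaled to the same total and without each replicate in turn. The span of the expressed members, 32.9-fold, was 16.0-fold both with canonical transcript lengths and with unshared canonical bases, and 32.2 to 33.4 when a replicate was left out. Of the 8 neighbouring pairs, 5 kept their order under each of these lengths and 8 without any replicate. The median spread, 0.17, was 0.064 after centring each replicate on its median ratio and 0.0968 to 0.186 when a replicate was left out, lowest without replicate 3. The number of members that differed between replicates, 8, was 8 with an exact multinomial test, 4 after centring with either test, 4 to 8 when a replicate was left out and 0 to 3 when both were done. The share of all genes called moved too, from 54.3% to 31.2% after centring, 21.3% to 46.7% when a replicate was left out and 8.89% to 27.3% when both were done. The exact test and the centring with a replicate left out were added after the data were seen. The cause of these shifts was not tested beyond what each setting changes. No paired analysis was possible because the series holds a single condition. Levels in TPM rest on lengths and on the total of each library. At the length that the deposited TPM match, 0 reads limit MTAP to at most 0.0886 TPM, and this limit depends on that length too.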
